A study of Drosophila melanogaster with 11 samples.

Results

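Newly synthesized RNA of Kc167 cells depleted of M1BP was compared directly with that of Kc167 cells depleted of Mod(mdg4)67.2, without any mock library in the comparison. Of the 11 libraries listed for the series, 4 entered the comparison because their labels name one of these treatments and their column in the count table has a heading of its own. They are replicates 2 and 3 of the *M1BP* knockdown (M1BPKD) and replicates 1 and 2 of the *mod(mdg4)* knockdown (ModKD). The table has 2 columns under one repeated heading, which were left out, and M1BPKD replicate 1 has no column of its own and was not analysed here. Kc167 is a *Drosophila* cell line of embryonic origin, labelled female, that resembles hemocytes, the blood cells of the fly. The labels give no further allele or transgene. In both arms cells were electroporated with dsRNA, kept for 5 days and then given 0.2 mM EU (5-ethynyl uridine) for 1 h, which is built into new RNA and allows its capture. Since both arms received dsRNA, the response to dsRNA as such is shared between them, but M1BPKD cells received 20 µg and ModKD cells 5 µg, and an effect of this amount, or of separate transfections, cannot be told apart from that of the targeted gene. The values of 4 mock libraries, whose cells were electroporated with no RNA, are shown beside the contrast as a description only.

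M1BP is a zinc-finger protein that binds Motif 1, a core promoter element found mostly at genes that all cells use, among them ribosomal protein genes, and it is associated with RNA polymerase II that pauses shortly after initiation. Mod(mdg4)67.2 is 1 isoform of a BTB-domain protein and a part of the *gypsy* insulator complex together with the zinc-finger protein Su(Hw) and the BTB-domain protein CP190. Insulators are DNA-protein complexes that limit which enhancers act on which promoters. The direct contrast asks which nascent transcripts distinguish the loss of the promoter-binding factor from the loss of the insulator protein.

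Motif 1 sequences were read from the study's supplementary list of motif matches near gene starts, of which the 1999 strongest were held here. They are shown for the genes named below that have the exact 9-letter core GGTCACACT, since this is the element that M1BP reads. Capitals mark the core.
su(Hw): gcaacGGTCACACTg
CG13623: tctacGGTCACACTg
ATPsynC: gttatGGTCACACTg
Rint1: gacatGGTCACACTg
PDZ-GEF: ggtgtGGTCACACTg
RpLP1: ggcgcGGTCACACTg
The centre of the match lies 8 bases from the start of *su(Hw)*, 16 from that of *PDZ-GEF*, 17 from that of *Rint1*, 17 from that of *RpLP1*, 99 from that of *CG13623* and 163 from that of *ATPsynC*, each to within 1 base. The list was held only in part, so neither the absence of other genes from it nor the number of matches was used. The values of these genes follow with their groups: *su(Hw)* and *CG13623* fell, *ATPsynC* rose, and *Rint1*, *PDZ-GEF* and *RpLP1* did not pass the test.

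Total counts were 13181160 and 11312004 in M1BPKD, 11808443 and 7462623 in ModKD and between 24944604 and 29680851 in mock. Across genes, log2 levels correlated at 0.936 between the M1BPKD replicates and at 0.926 between the ModKD replicates, against 0.869 to 0.892 between libraries of different knockdowns (Pearson's r over 8696 genes, which are not independent replicates). With the mock libraries, which are deeper, ModKD replicate 1 correlated at 0.963 to 0.970 and ModKD replicate 2 at 0.932 to 0.940. Each ModKD library was thus closer to every mock library than to the other ModKD library. M1BPKD libraries correlated with mock at 0.916 to 0.924, below the value between their replicates. ModKD replicate 2 stood apart in small structured RNAs. Its summed level of the 273 small nucleolar RNA genes was 1740 CPM (counts scaled to a common library total with edgeR's TMM factors), against 167 in ModKD replicate 1 and 396 or less in the other libraries. Counting was by gene span and strand, and 1678 of the 1678 genes that lie wholly inside another gene on the same strand are listed at 0 in all 8 libraries, which takes in most small nucleolar RNA genes and also *RpS6*, *Rel* and *usp*. The study describes its RNA-seq replicates as biological, and the p-values measure the spread between these libraries. The mock libraries fell into pairs. Mock replicates 1 and 2 correlated at 0.995 and replicates 3 and 4 at 0.993, against 0.983 to 0.989 between the pairs. A mock range given below thus spans both pairs, and what sets them apart was not tested.

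Many more genes were higher than lower in M1BPKD relative to ModKD. Of 8757 genes tested, 424 were higher, or 4.84%, and 147 were lower, or 1.68%, together 6.52%, at an adjusted p below 0.05 in edgeR's quasi-likelihood test, so that 74.3% of the calls were higher. The median log2 fold change of all genes tested was -0.02. Under scaling by library size alone this median moved to -0.27, and 253 genes were higher and 261 lower, so the share of higher calls was then 49.2%. At an unadjusted p below 0.05 there were 1852 genes. The fitted log2 fold changes had a median of 1.95 among the higher genes, of which 411 differed by at least 2-fold, 205 by at least 4-fold and 72 by at least 16-fold. The lower genes had a median of -1.37, with 134 at 2-fold or more, 18 at 4-fold or more and 3 at 16-fold or more.

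**Figure D1:**
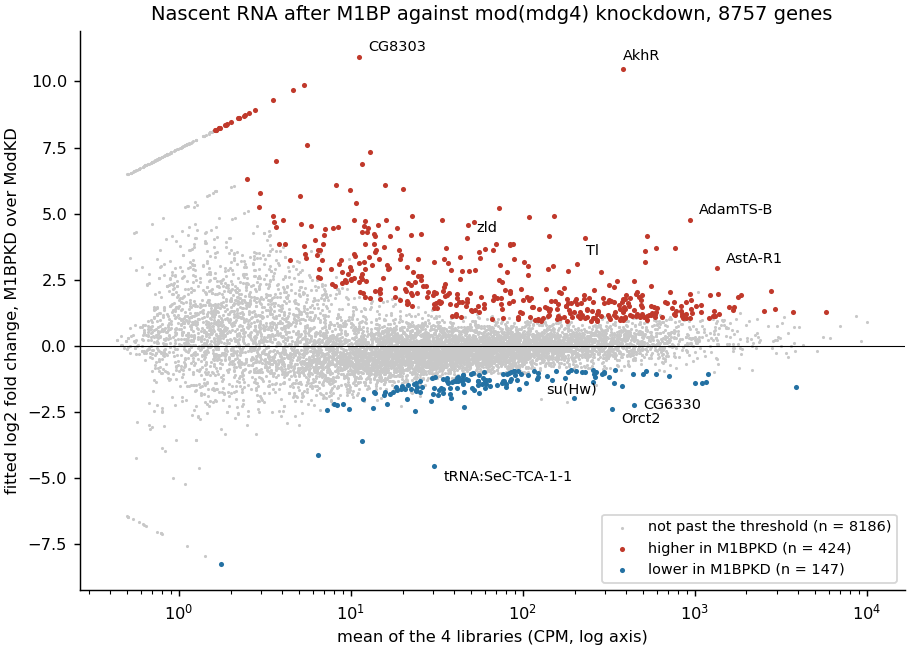
Fitted log2 fold change of M1BPKD over ModKD (y axis) against the mean CPM of the 4 libraries (x axis, log scale) for 8757 genes, with 424 higher genes in red and 147 lower genes in blue. The points on straight diagonal lines at the upper and lower left are genes at 0 in both libraries of one group, whose fitted fold change depends on the prior count.

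The higher genes had a typical level in ModKD cells. The median over these 424 genes of the mean level was 119.5 CPM in M1BPKD, 25.4 CPM in ModKD and 29.97 CPM in mock, and that of all genes tested was 25.7 CPM in ModKD. In both ModKD libraries 28 of them had 3 counts or fewer, and 21 had 0. The lower genes had medians of 28.7 CPM in M1BPKD, 76.7 CPM in ModKD and 57.8 CPM in mock. Both M1BPKD libraries lay above both ModKD libraries for all 424 higher genes and below them for 146 of the 147 lower genes. Of all genes tested, 26.6% lay above and 26.6% below in this way. Within M1BPKD, 302 of the 424 higher genes had the larger value in replicate 3, compared with 4369 of all 8757 genes tested.

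The smallest p was that of *AkhR*, the receptor of adipokinetic hormone, which controls energy mobilization in the fat body. It is on 2L from 6711286 to 6716186 (dm6). *AkhR* measured 907 and 628 CPM in M1BPKD, 0.492 and 0.582 CPM in ModKD, and at most 0.114 CPM in mock. It was thus close to absent outside M1BPKD, at 10.49 on the log2 scale (SE 0.45, adjusted p = 1.26e-08). *CG8303* (2R, 16595028 to 16604373) measured 25.3 and 19.4 CPM in M1BPKD and 0 in both ModKD libraries, and its mean was at least 64.1-fold higher than the level of 3 counts in the shallower ModKD library.

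*AdamTS-B*, a secreted metalloprotease of the extracellular matrix, measured 2242 and 1360 CPM in M1BPKD against 68.1 and 64.8 CPM in ModKD. Mock libraries held 61.9 to 72.8 CPM, a range with both ModKD values in it (log2 fold change 4.77, SE 0.35, adjusted p = 9.62e-06). *CG10663* measured 203 and 385 CPM in M1BPKD and 12.0 and 7.68 CPM in ModKD, which is 4.91 on the log2 scale (adjusted p = 1.04e-05). *Ugt302K1*, a UDP-glycosyltransferase, measured 136 and 284 CPM in M1BPKD and 6.15 and 8.37 CPM in ModKD (log2 fold change 4.87, adjusted p = 1.67e-05). Mock libraries held 21.5 to 26.0 CPM of *CG10663* and 14.4 to 21.7 CPM of *Ugt302K1*, so for both genes the ModKD values were the lowest. *zld* encodes Zelda, the pioneer factor of early zygotic transcription in the embryo. It measured 73.5 and 106 CPM in M1BPKD, 5.82 and 4.77 CPM in ModKD and 8.45 to 10.1 CPM in mock, a log2 fold change of 4.09 (SE 0.35, adjusted p = 2.79e-05).

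*Oamb*, an octopamine receptor, measured 34.4 and 53.2 CPM in M1BPKD against 1.39 and 1.51 CPM in ModKD (log2 fold change 4.92, adjusted p = 5.22e-05). *CG4629* measured 77.7 and 204 CPM against 1.23 and 6.63 CPM (log2 fold change 5.22). The M1BPKD replicates of *CG4629* differed from each other more than 2-fold, yet both lay far above ModKD. The noncoding RNA *lncRNA:let7C*, the host transcript of *let-7*, *mir-100* and *mir-125*, measured 17.0 and 45.5 CPM in M1BPKD and 0.82 and 0 CPM in ModKD (log2 fold change 6.08, adjusted p = 0.000515). *lncRNA:CR43977* measured 13.6 and 38.04 CPM against 0 and 0.349 CPM, and *CG13857* 10.7 and 28.5 CPM against 0.574 and 0 CPM. For these weakly expressed genes the fitted fold change rests on few ModKD counts and depends on the prior count.

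Several of the largest increases are neighbours on 2L. *witty* (8338287 to 8342056), *CG14273* (8342695 to 8344378) and *CG7778* (8346620 to 8351112) follow each other on the plus strand. *witty* measured 29.4 and 49.5 CPM in M1BPKD and 0.984 and 0.233 CPM in ModKD (log2 fold change 5.93, adjusted p = 6.73e-05). *CG14273* measured 9.48 and 32.2 CPM in M1BPKD and 0.41 and 0.582 CPM in ModKD, and *CG7778* 12.5 and 33.3 CPM against 0.328 and 0 CPM. The log2 fold changes were 5.40 and 6.88. *CG14275*, which lies just upstream and was looked up after these values were seen, rose by 4.77, while the next tested gene on the other side of it, *CG7781*, did not pass the test. *CG14273* was the only 1 of the 3 to miss the threshold in an alternative, without M1BPKD replicate 3 (adjusted p = 0.0886). Over the whole genome 65 of 8747 adjacent pairs of tested genes were both higher, 5 were both lower, and 5 had 1 gene in each direction.

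**Figure D2:**
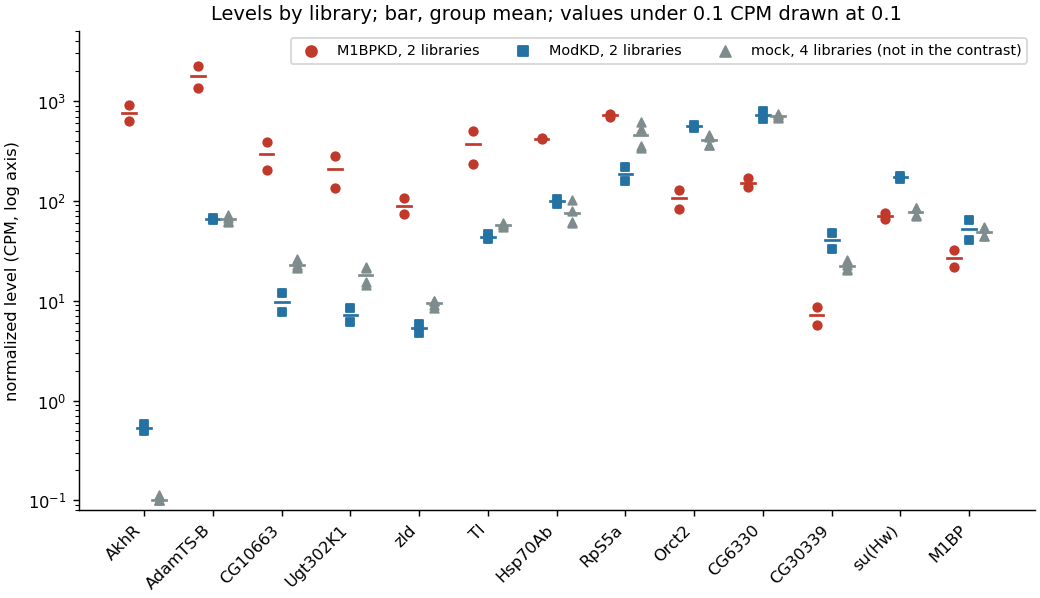
Level of 13 genes in each library (CPM, log axis), with 2 M1BPKD libraries as red circles, 2 ModKD libraries as blue squares and 4 mock libraries as grey triangles; bars are group means. The red circles lie above the blue squares from *AkhR* to *RpS5a* and below them from *Orct2* to *M1BP*, and for *su(Hw)* the mock values lie with M1BPKD.

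Among the lower genes, *Orct2* (3R, 24273029 to 24275728), which encodes an organic cation transporter, measured 128 and 83.5 CPM in M1BPKD, 574 and 541 CPM in ModKD and 366 to 458 CPM in mock. It fell by 2.38 on the log2 scale (SE 0.29, adjusted p = 0.000242). *CG6330* fell by 2.25 (SE 0.28, adjusted p = 0.000259), from 662 and 802 CPM in ModKD to 168 and 137 CPM in M1BPKD. Mock libraries of *CG6330* held 683 to 736 CPM, within the range of ModKD. *CG30339* measured 8.74 and 5.74 CPM in M1BPKD and 33.3 and 47.3 CPM in ModKD, a log2 fold change of -2.46 (adjusted p = 0.00245).

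*CG13623*, whose start carries the Motif 1 core shown above, measured 2.64 and 6.12 CPM in M1BPKD and 16.0 and 28.8 CPM in ModKD (log2 fold change -2.35, adjusted p = 0.0198). *CG31643* measured 1.90 and 4.33 CPM against 18.2 and 14.9 CPM (log2 fold change -2.39, adjusted p = 0.0254). Both calls were lost when M1BPKD replicate 2 was left out. *fsd* fell by 2.21 and *Pmm2*, which encodes a phosphomannomutase, by 2.03. *Pmm2* missed the threshold without M1BPKD replicate 3 (adjusted p = 0.184).

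Of 406 tested noncoding RNA genes 26 were higher, or 6.4%, and 8 lower, or 1.97%, against 4.84% and 1.68% of all genes tested. Some of the lower ones follow. *lncRNA:CR43264* measured 78.7 and 79.8 CPM in M1BPKD and 252 and 384 CPM in ModKD, while mock ranged widely from 151 to 386 CPM (log2 fold change -1.99, adjusted p = 0.000769). *lncRNA:Irar* measured 18.5 and 11.9 CPM in M1BPKD, 94.5 and 57.9 CPM in ModKD and 32.6 to 47.6 CPM in mock (log2 fold change -2.31, adjusted p = 0.00123). *lncRNA:CR46004* measured 12.8 and 9.42 CPM in M1BPKD, 51.3 and 43.7 CPM in ModKD and 17.1 to 18.1 CPM in mock (log2 fold change -2.08). For the last of these the mock level was nearer to M1BPKD, and the high values are those of ModKD.

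A contrast between 2 knockdowns does not show which of them departs from untreated cells, so each gene was placed by the side of the midpoint between the group means on which its mock values lie. All 4 mock libraries were on the ModKD side for 289 of the 424 higher genes, or 68.2%, and for 94 of the 147 lower genes, or 63.9%. They were on the M1BPKD side for 54 higher genes, or 12.7%, and 11 lower genes, or 7.48%, and on both sides for the others. Over all tested genes the corresponding shares were 39.5% and 17.9%.

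*M1BP* itself, on 3R from 8729790 to 8731698, measured 21.7 and 32.3 CPM in M1BPKD, 65.0 and 40.2 CPM in ModKD and 44.0 to 54.2 CPM in mock. Both M1BPKD libraries were thus below all other libraries. The log2 fold change was -0.95 (SE 0.34) and did not pass the test (adjusted p = 0.121). It passed without ModKD replicate 2, at -1.24 (adjusted p = 0.0306), and with all 8 libraries in one model, at -0.97 (adjusted p = 0.0331). RNA interference acts mainly on finished transcripts, so a nascent level is a limited measure of depletion. *Cp190* measured 437 and 371 CPM in M1BPKD and 458 and 333 CPM in ModKD (log2 fold change 0.05, adjusted p = 0.949). The *mod(mdg4)* gene was not analysed here, so the ModKD libraries were not checked against their target.

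Among 20 tested genes of insulator and architectural proteins, 0 were higher and 1 was lower, *su(Hw)*, or 5% against 1.68% of all genes tested. The list's median log2 fold change was -0.25 against -0.02 over all genes tested. Su(Hw) is the DNA-binding subunit of the *gypsy* insulator, the complex to which Mod(mdg4)67.2 belongs. The gene (3R, 14304455 to 14308589) measured 66.6 and 74.9 CPM in M1BPKD, 178 and 167 CPM in ModKD and 70.3 to 84.7 CPM in mock. It is the reverse of most lower genes, with mock beside M1BPKD and the high values in ModKD. The log2 fold change was -1.27 (SE 0.25, adjusted p = 0.00732). The most abundant member, *Trf2*, which encodes a TBP-related factor used at many Motif 1 promoters, had a log2 fold change of 0.28 (adjusted p = 0.674). *CTCF*, *BEAF-32*, *pita* and *Clamp*, further DNA-binding architectural proteins that were looked up by name, also missed the threshold, with log2 fold changes of -0.56, 0.06, 0.26 and 0.17.

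Cytosolic ribosomal protein genes were the gene list with the most higher members. Of 84 tested, 41 were higher and 0 lower, the share of higher members being 48.8% against 4.84% of all genes, and the median log2 fold change was 1.06. Both M1BPKD libraries lay above both ModKD libraries for 71 of the 84, or 84.5%, against 26.6% of all genes. The summed level of the list was 52263 and 39691 CPM in M1BPKD, 20222 and 27701 CPM in ModKD and 33166 to 40194 CPM in mock. The 2 knockdowns lay on opposite sides of mock, except that M1BPKD replicate 3 was within the mock range.

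Relative to the mean of the mock libraries, the median ribosomal protein gene was at 0.56 and 0.17 on the log2 scale in M1BPKD replicates 2 and 3 and at -0.85 and -0.50 in ModKD replicates 1 and 2. Of the 41 higher members, 19 had all mock libraries on the M1BPKD side of the midpoint, 1 on the ModKD side and 21 on both sides. This is a different placement from that of the higher genes as a whole, of which 68.2% had mock on the ModKD side. No test of this difference was run.

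*RpS5a*, a small-subunit protein gene on X that also hosts small nucleolar RNAs and has a close paralog, measured 747 and 689 CPM in M1BPKD and 158 and 217 CPM in ModKD. Mock libraries held 339 to 614 CPM (log2 fold change 1.95, SE 0.28, adjusted p = 0.000893). *RpL27* measured 540 and 449 CPM in M1BPKD and 166 and 147 CPM in ModKD (log2 fold change 1.68, adjusted p = 0.00152). *RpS4* rose by 1.73 and *RpS24* by 1.64 on the log2 scale. *RpL30* measured 298 and 257 CPM in M1BPKD, 52.0 and 113 CPM in ModKD and 121 to 142 CPM in mock (log2 fold change 1.76, SE 0.34, adjusted p = 0.00612). In *RpL30* both knockdowns were outside the mock range, M1BPKD above and ModKD below it.

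*RpLP1*, whose start carries the Motif 1 core, measured 810.1 and 707 CPM in M1BPKD, 281 and 603 CPM in ModKD and 662 to 912 CPM in mock. Its groups did not overlap, but the ModKD replicates differed by more than 2-fold and the log2 fold change of 0.78 (SE 0.34) did not pass the test (adjusted p = 0.202). The most abundant member, *RpL21*, had a log2 fold change of 0.76 (adjusted p = 0.159). The count of higher members depended on single libraries: it was 17 without M1BPKD replicate 2 and 21 without ModKD replicate 1, with medians of 0.82 and 0.89, and 16 under scaling by library size alone, with a median of 0.79. ModKD replicate 2, which stood apart in small RNAs, had the larger ribosomal protein sum of the ModKD libraries, and the part of this library's composition in the result was not tested.

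**Figure D3:**
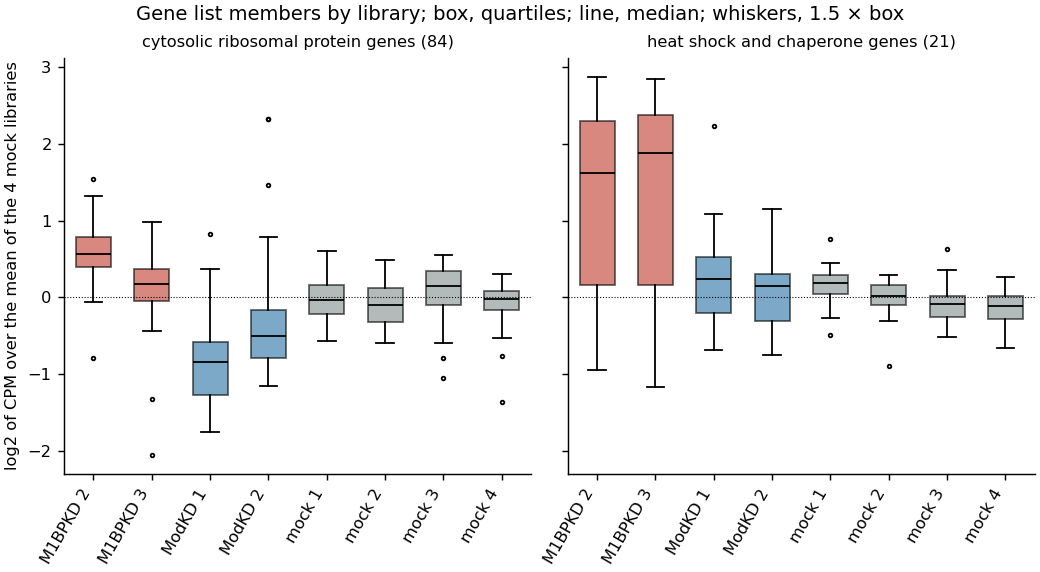
Level of the members of 2 gene lists in each library, as log2 of CPM over the mean of the 4 mock libraries (y axis; values at 0 left out), with boxes for quartiles and lines for medians. Ribosomal protein genes (84) have medians of 0.56 and 0.17 in M1BPKD and -0.85 and -0.50 in ModKD, and heat shock and chaperone genes (21) have medians of 1.62 and 1.88 in M1BPKD and 0.25 and 0.15 in ModKD.

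The other lists of large complexes had few calls. Of 70 mitochondrial ribosomal protein genes, 1 was higher, or 1.43% against 4.84% of all genes tested, and 0 lower, with a median of -0.35. *mRpS26* was the higher member, at 47.2 and 90.0 CPM in M1BPKD and 19.4 and 29.8 CPM in ModKD (log2 fold change 1.49, adjusted p = 0.0265), a call that was lost under library size scaling and without M1BPKD replicate 3 or ModKD replicate 1. Of 35 proteasome subunit genes, 0 were higher and 1 was lower, or 2.86% against 1.68% of all genes tested, with a median of -0.16. *Rpn12*, a regulatory lid subunit, fell by 1.32 (adjusted p = 0.0171), but not past the threshold without M1BPKD replicate 2 or 3. The most abundant members were *mRpL30*, at -0.84 (adjusted p = 0.121), and *Rpn2*, at -0.32 (adjusted p = 0.552).

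Of 69 nuclear genes of oxidative phosphorylation, 3 were higher, or 4.35%, and 2 lower, or 2.9%, with a median of 0.21. The shares over all genes tested were 4.84% and 1.68%, so these counts do not set the list apart. Both M1BPKD libraries lay above both ModKD libraries for 28 of the 69, or 40.6% against 26.6% of all genes tested. *COX6B*, a cytochrome c oxidase subunit, measured 193 and 212 CPM in M1BPKD and 85.6 and 80.5 CPM in ModKD (log2 fold change 1.30, adjusted p = 0.00594). *ATPsynC*, the membrane ring subunit of ATP synthase and a gene with the Motif 1 core, rose by 1.21 (adjusted p = 0.0172), while it missed the threshold without M1BPKD replicate 2 and under library size scaling. The third higher member was *ND-MLRQ*. *UQCR-11*, a subunit of complex III, fell by 1.83 (adjusted p = 0.00317), from 57.7 and 60.9 CPM in ModKD to 17.4 and 15.7 CPM in M1BPKD. Mock libraries held 23.6 to 70.2 CPM of *UQCR-11*, a range that takes in the ModKD values. *UQCR-6.4*, of the same complex, fell by 1.59 (adjusted p = 0.0329), but missed the threshold without M1BPKD replicate 2 or ModKD replicate 1.

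The heat shock and chaperone genes stood out with the highest median of the pathway lists, 1.56. Of 21 tested members 10 were higher, or 47.6% against 4.84% of all genes tested, and 0 were lower. The summed level of the list was 16763 and 16048 CPM in M1BPKD, 8602 and 9462 CPM in ModKD and 8897 to 10261 CPM in mock. In this sum ModKD was thus close to mock and M1BPKD above both. Among the higher members, both ModKD libraries lay above all mock libraries for *Hsp70Aa*, *Hsp70Ba* and *Hsp70Bb* and below them for *DnaJ-1*. For the other higher members ModKD and mock overlapped. *Hsp70Ba* measured 91.0 and 72.7 CPM in ModKD and 40.3 to 48.7 CPM in mock. All 10 higher members had all mock libraries on the ModKD side, and the count of higher members was between 10 and 12 under every alternative tried.

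The higher members were inducible chaperones. *Hsp70Ab* measured 415 and 426 CPM in M1BPKD, 105 and 92.1 CPM in ModKD and 60.7 to 102 CPM in mock (log2 fold change 2.1, SE 0.26, adjusted p = 0.000244). *Hsp70Aa* rose by 2.06, *Hsp70Bb* by 1.75 and *Hsp70Ba* by 1.56. These *Hsp70* genes are nearly identical copies, so the division of reads among them is uncertain. *Hsp27*, a small heat shock protein, measured 564 and 551 CPM in M1BPKD and 142 and 99.2 CPM in ModKD (log2 fold change 2.23, SE 0.28, adjusted p = 0.000259). The small heat shock genes *Hsp23* and *Hsp26* rose by 2.04 and 1.73, *Hsp68* by 1.96 and the cochaperone *DnaJ-1* by 1.46.

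*stv*, which encodes the cochaperone Starvin, measured 270.1 and 254 CPM in M1BPKD and 76.2 and 52.1 CPM in ModKD (log2 fold change 2.05, adjusted p = 0.000428). *Hsp83*, the fly Hsp90 and the most abundant member, measured 3151 and 3014 CPM in M1BPKD and 1662 and 1414 CPM in ModKD. Its groups did not overlap, but its log2 fold change of 1.02 had an adjusted p = 0.0537. The constitutive members *Hsc70-3*, *Hsc70-4*, *Hsc70-5*, *Gp93* and *Hsp60A* had log2 fold changes of -0.57, 0.49, -0.12, -0.32 and -0.03, none of them past the threshold. Further heat shock genes of the list missed it too: *Hsp67Ba*, *Hsp67Bc*, *Hsp70Bbb* and *Hsp70Bc*, at -0.57, 2.05, 1.94 and 0.52. *Hsf*, the heat shock transcription factor, was at 0.23 (adjusted p = 0.659).

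Ecdysone response genes had a median of 1.22, with 5 of 16 tested higher, or 31.2% against 4.84% of all genes tested, and 0 lower. The summed level of the list overlapped between groups, at 7754 and 8631 CPM in M1BPKD, 8958 and 7027 CPM in ModKD and 7687 to 8967 CPM in mock. Of the 5 higher members, 3 had all mock libraries on the ModKD side of the midpoint, 1 on the M1BPKD side and 1 on both sides. Ecdysone is the steroid hormone of molting, and Kc cells respond to it. *E23*, an ABC transporter induced by ecdysone, measured 30.6 and 59.1 CPM in M1BPKD and 5.25 and 4.07 CPM in ModKD (log2 fold change 3.28, adjusted p = 0.000479). *Hr4*, a nuclear receptor, measured 43.0 and 44.5 CPM against 9.10 and 9.30 CPM (log2 fold change 2.26, adjusted p = 0.00183). *Eip74EF*, *br* and *tai*, respectively an early ETS factor, the Broad zinc-finger factor and a coactivator of the ecdysone receptor, rose by 1.49, 1.09 and 1.53. The receptor gene *EcR* was at 0.03 (adjusted p = 0.964), and *usp*, its partner, is listed at 0. *ImpL2*, the most abundant member, was at -0.43 (adjusted p = 0.472).

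Notch pathway genes had 6 of 17 higher, or 35.3% against 4.84% of all genes tested, and 0 lower, with a median of 0.47. The higher members were the ligand *Ser*, the glycosyltransferase *fng* that modifies Notch, the metalloprotease *kuz* that cleaves it, and the *E(spl)* complex genes *E(spl)m2-BFM*, *E(spl)m7-HLH* and *E(spl)mbeta-HLH*, which are targets of the pathway. *Ser* measured 54.3 and 79.6 CPM in M1BPKD and 25.2 and 17.9 CPM in ModKD (log2 fold change 1.65, adjusted p = 0.00722). *kuz* measured 2720 and 4455 CPM in M1BPKD and 1742 and 1195 CPM in ModKD (log2 fold change 1.31, adjusted p = 0.0343). *fng* rose by 2.16 and *E(spl)mbeta-HLH* by 1.83. *E(spl)m7-HLH* measured 1.98 and 4.61 CPM in M1BPKD and 0 in both ModKD libraries, so its call (adjusted p = 0.049) rests on low counts. Without M1BPKD replicate 3, and under library size scaling, 1 gene of the list was higher. The receptor gene *N* had a log2 fold change of -0.20 and the transcription factor gene *Su(H)* of 0.19.

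Toll and Imd immune genes had 4 of 26 higher, or 15.4%, and 1 lower, or 3.85%, with a median of 0.10. The shares over all genes tested were 4.84% and 1.68%. Toll signalling passes from the ligand Spätzle through the receptor to the inhibitor Cactus and the NF-kB factors Dif and Dorsal. *Tl*, the receptor, measured 234 and 507 CPM in M1BPKD, 41.2 and 46.2 CPM in ModKD and 54.2 to 60.4 CPM in mock (log2 fold change 3.10, SE 0.35, adjusted p = 0.000145). *Dif* measured 216 and 403 CPM against 117 and 96.2 CPM in ModKD (log2 fold change 1.56, adjusted p = 0.00716). The ligand gene *spz* rose by 1.36 and *cact* by 1.21, whereas the adaptors *Myd88*, *tub* and *pll* were at 0.04, -0.57 and -0.11 and missed the threshold. *PGRP-LE*, an intracellular peptidoglycan sensor of the Imd pathway, fell by 1.41 (adjusted p = 0.00741), from 176 and 128 CPM in ModKD to 65.5 and 47.5 CPM in M1BPKD. Without M1BPKD replicate 3, 1 gene of the list was higher in place of 4.

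In the JAK-STAT pathway 2 of 12 tested genes were higher, or 16.7% against 4.84% of all genes tested, and 0 lower. The median was 0.33, and both higher genes were ligand genes. *upd3* measured 1253 and 1812 CPM in M1BPKD, 655 and 633 CPM in ModKD and 519 to 629 CPM in mock (log2 fold change 1.27, adjusted p = 0.0197). *upd2* measured 45.9 and 82.1 CPM against 21.2 and 20.4 CPM (log2 fold change 1.64, adjusted p = 0.0104). Both calls were lost without M1BPKD replicate 3. The receptor *dome*, the kinase *hop* and the factor *Stat92E* had log2 fold changes of 0.42, -0.21 and 0.25, and the feedback inhibitor *Socs36E* of 0.72 (adjusted p = 0.153).

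Of 24 extracellular matrix and integrin genes, 5 were higher, or 20.8%, and 2 lower, or 8.33%. The shares over all genes tested were 4.84% and 1.68%, and the median of the list was 0.67. The list as set up contains *Tl*, which is a receptor and not a matrix gene, and *AdamTS-B*, and both are described above. *Pxn*, which encodes peroxidasin, measured 607 and 946 CPM in M1BPKD and 185 and 234 CPM in ModKD (log2 fold change 1.90, adjusted p = 0.00181). *Ppn*, papilin, and *SPARC*, a collagen-binding glycoprotein, rose by 1.24 and 1.40. *vkg*, a collagen IV chain, fell by 1.19 (adjusted p = 0.0473), and *Mmp1*, a matrix metalloprotease, fell by 0.97 (adjusted p = 0.0419). Under DESeq2 size factors, and without M1BPKD replicate 2, M1BPKD replicate 3 or ModKD replicate 1, 0 genes of the list were lower, and *Ppn* and *SPARC* missed the threshold under library size scaling and without M1BPKD replicate 2 or ModKD replicate 1. *LanA*, a laminin chain and the most abundant member, was at 0.33, and the other collagen IV gene *Col4a1* at -0.08.

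Neuropeptide and hormone receptor genes were low or silent in most libraries. Of 22 tested, 2 were higher, or 9.09% against 4.84% of all genes tested, and 0 lower. The median was 1.11, and 3.33 without ModKD replicate 2. It was 0.56 when only the 8 members that reach 10 counts in each library were kept. Besides *AkhR*, *AstA-R1*, a receptor of allatostatin A, measured 1569 and 3211 CPM in M1BPKD, 351 and 280.0 CPM in ModKD and 379 to 464 CPM in mock (log2 fold change 2.94, SE 0.37, adjusted p = 0.000259). *InR*, the insulin receptor gene, was at -0.09 (adjusted p = 0.915).

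**Figure D4:**
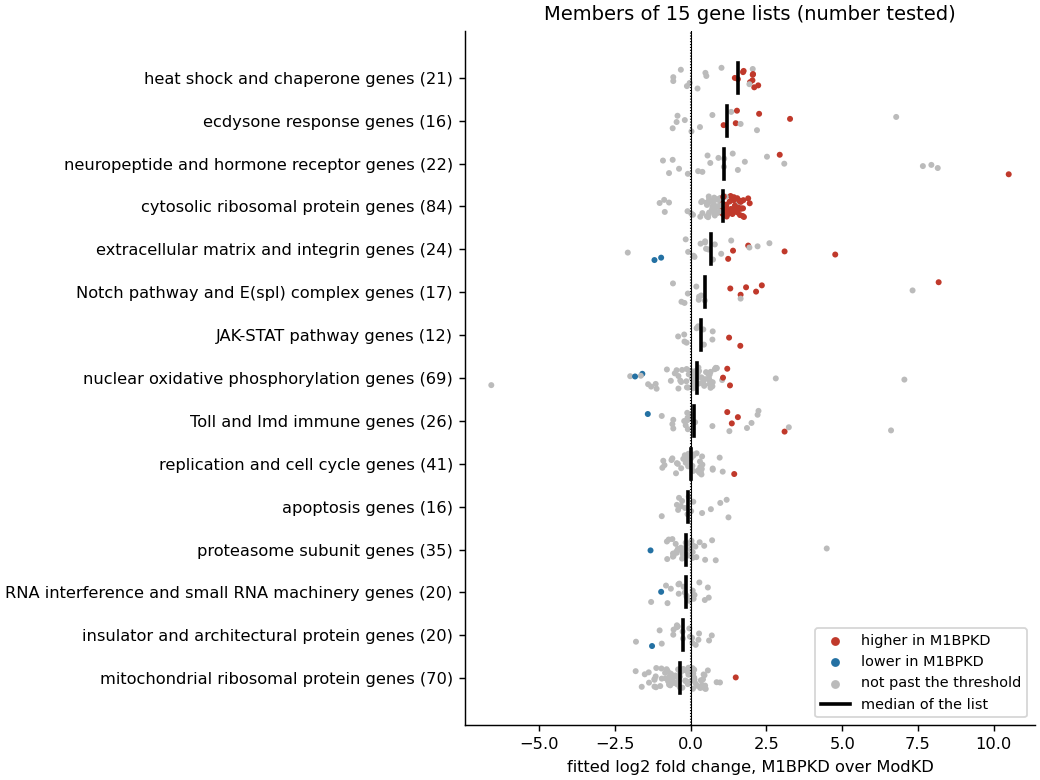
Fitted log2 fold change of M1BPKD over ModKD for the tested members of 15 gene lists; points past the threshold are red (higher) or blue (lower), and black lines are list medians. Medians run from 1.56 for heat shock and chaperone genes to -0.35 for mitochondrial ribosomal protein genes, against -0.02 for all genes tested.

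Genes of replication and the cell cycle, RNA interference, apoptosis and the Hox complexes had few calls. Of 41 replication and cell cycle genes, 1 was higher, or 2.44% against 4.84% of all genes tested, and 0 lower, with a median of 0.02. *Cdk2*, the S-phase kinase, measured 70.7 and 103 CPM in M1BPKD and 28.2 and 36.5 CPM in ModKD (log2 fold change 1.44, adjusted p = 0.0121). Of 20 genes of RNA interference and small RNA pathways, 0 were higher and 1 was lower, or 5% against 1.68% of all genes tested, with a median of -0.16. *AGO3*, a piRNA-binding Argonaute, fell by 0.97 (adjusted p = 0.0361). *Cdk2* missed the threshold without M1BPKD replicate 3 and under library size scaling, and *AGO3* under DESeq2 size factors and without M1BPKD replicate 2, M1BPKD replicate 3 or ModKD replicate 1. Of 16 apoptosis genes, 0 were higher and 0 lower, with a median of -0.08. The 8 Hox genes had 0 calls in either direction and a median of 0.90 (3.21 without ModKD replicate 2, 0.13 without M1BPKD replicate 2 and -0.08 without ModKD replicate 1), with summed levels of at most 33.8 CPM in any library. *E2f1*, *Fmr1*, *puc* and *Dfd*, the most abundant members of these lists, had log2 fold changes of 0.09, 0.60, 0.09 and -1.24 and did not pass the test.

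For small RNA genes the calls and signs changed with single ModKD libraries. Of 7 tested transfer RNA genes, 0 were higher and 2 were lower, or 28.6% against 1.68% of all genes tested, and the median was -0.04. Without ModKD replicate 1, 6 were lower, and without M1BPKD replicate 2 the median was -3.91 over 5 genes. *tRNA:SeC-TCA-1-1* measured 3.88 and 1.04 CPM in M1BPKD and 3.44 and 114 CPM in ModKD (log2 fold change -4.56, adjusted p = 0.0224), and *tRNA:His-GTG-2-1Psi* 2.06 and 1.41 CPM against 3.03 and 39.8 CPM (log2 fold change -3.61, adjusted p = 0.0284). The high values of both are those of ModKD replicate 2, and without it both missed the threshold, with adjusted p-values of up to 0.882. Of 8 small nucleolar RNA genes and 9 small nuclear RNA genes, 0 passed in either direction, with medians of -1.67 and -0.39. Without ModKD replicate 2 both medians changed sign, to 1.28 and 2.15, and 2 genes of each list were higher, whereas without ModKD replicate 1 the medians were -2.60 and -1.27, and 4 small nucleolar RNA genes were lower, and 1 small nuclear RNA gene was lower and 1 higher. *snoRNA:Psi28S-2622* measured 196 and 83.5 CPM in M1BPKD and 30.01 and 757 CPM in ModKD, so its direction is set by ModKD replicate 2: its log2 fold change was -1.50 (adjusted p = 0.342) and, without that library, 2.24 (adjusted p = 0.000288). *snRNA:7SKa* measured 1584 and 1794 CPM in M1BPKD and 85.0 and 726 CPM in ModKD, and *RNaseMRP:RNA* 3014 and 2134 CPM against 927 and 3483 CPM, and neither passed the test. *snRNA:7SKa*, at a log2 fold change of 2.05 (adjusted p = 0.0711), passed it with any 1 library left out, at 1.25 without ModKD replicate 1 and 4.34 without ModKD replicate 2. *RNaseMRP:RNA* passed it without ModKD replicate 2, where it rose by 1.5 on the log2 scale (adjusted p = 0.00824). A list set up for 7SL, RNase P, RNase MRP and 7SK RNAs had 3 tested genes, which are 7SL genes and *RNaseMRP:RNA*. *RNaseP:RNA* is listed at 0 in all 4 libraries, and *snRNA:7SKa* was counted with the small nuclear RNA genes instead. These 3 genes had 0 calls and a median of -0.35. Their median was 1.5 without ModKD replicate 2 and -1.14 without ModKD replicate 1. Of the histone list, 1 replication-dependent histone gene was tested, without a call.

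Of 20 genes of the mitochondrial genome, 1 was higher and 1 lower, with a median of 0.33. This is 5% in each direction, against 4.84% higher and 1.68% lower over all genes tested. The median was -0.23 without M1BPKD replicate 2, -0.11 without ModKD replicate 1 and 1.45 without ModKD replicate 2. *mt:CoIII*, a cytochrome oxidase subunit, measured 1520 and 2046 CPM in M1BPKD and 836 and 827 CPM in ModKD (log2 fold change 1.12, adjusted p = 0.0356). *mt:ND1*, a complex I subunit, fell by 1.06 (adjusted p = 0.0347), from 934 and 677 CPM in ModKD to 393 and 369.9 CPM in M1BPKD. Mock libraries ranged from 431 to 1192 CPM for *mt:ND1*, a range that holds both ModKD values. The call of *mt:ND1* was lost in 5 of 11 alternatives and that of *mt:CoIII* in 4, among them for both those without M1BPKD replicate 3 or ModKD replicate 1.

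Kc167 cells were checked against marker lists. Of 13 tested hemocyte markers 2 were higher, *Pxn* and *Ppn*, and 2 lower, *vkg* and *crq*, with a median of 0.13. This is 15.4% in each direction, against 4.84% higher and 1.68% lower over all genes tested. The hemocyte list summed to 6327 and 5681 CPM in M1BPKD and 6542 and 4490.0 CPM in ModKD, so that its groups overlapped. *crq*, a scavenger receptor for apoptotic cells, measured 30.3 and 22.2 CPM in M1BPKD and 53.6 and 72.2 CPM in ModKD (log2 fold change -1.25, adjusted p = 0.0324), and without M1BPKD replicate 3 or ModKD replicate 2 no hemocyte marker was lower. The hemocyte genes *gcm* and *NimC4* are listed at 0 in all 4 libraries, but *NimC4* lies wholly inside another gene on the same strand.

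Of 12 epithelial and imaginal disc markers, 3 were higher, or 25% against 4.84% of all genes tested, and 0 lower, with a median of 2.27. Both M1BPKD libraries lay above both ModKD libraries for 11 of them, against 26.6% of all genes tested. Without M1BPKD replicate 3, 0 genes of the list were higher, and under library size scaling 1 was. *tsh*, *dpp* and *ap*, which pattern the imaginal discs, rose by 3.17, 2.24 and 3.30, from low levels: *tsh* measured 12.9 and 30.04 CPM in M1BPKD and 1.80 and 3.02 CPM in ModKD. The summed level of the list was 524 and 472 CPM in M1BPKD, 319 and 261 CPM in ModKD and 349 to 424 CPM in mock. Of 8 neuron markers, 1 was higher, or 12.5%, namely *futsch*, a microtubule-associated protein gene that rose by 1.79. Of 5 testis markers 2 were higher, or 40%, *bol* and the multicopy gene *Ste12DOR*, by 1.73 and 4.75. The share over all genes tested was 4.84%. The testis list summed to 207 and 193 CPM in M1BPKD, 80.9 and 54.8 CPM in ModKD and 88.6 to 164 CPM in mock. Muscle, glia, fat body and germline markers had 0 calls among 7, 5, 3 and 3 tested genes, with medians of 0.31, 0.42, -0.25 and -0.37. With 1 library left out the fat body median ran from -4.15 to 0.73 and the germline median from -0.65 to 0.01. The fat body genes *Lsp1alpha*, *Lsp1gamma*, *Fbp1* and *Fbp2*, the germline gene *zpg*, the testis genes *betaTub85D* and *dj*, the muscle gene *Mlp84B* and the neuronal gene *VAChT* are listed at 0 in all 4 libraries, *Mlp84B* and *VAChT* again inside another gene. The part of these marker levels in the other results was not tested. Over the 10 lists and marker sets with 0 calls in edgeR's test, 12 of 63 tested genes had an unadjusted p below 0.05, and DESeq2 called 2.

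Besides *RpLP1* and *RpL30*, whose promoters it used in reporters, the study examined binding at the promoters of *tapas*, *PDZ-GEF*, *CG7872*, *CG6454* and *Rint1*. It compared knockdown with mock cells, so the contrast with ModKD does not test its results. For *tapas* to *Rint1*, in this order, the log2 fold changes were -0.48, -0.55, -0.43, -0.47 and -0.76. In edgeR's test none passed, the adjusted p-values being 0.286, 0.249, 0.448, 0.337 and 0.263. With all 8 libraries in one model *tapas* passed, at -0.50 on the log2 scale (adjusted p = 0.047). *Rint1*, a vesicle-tethering factor, measured 16.6 and 28.7 CPM in M1BPKD and 33.8 and 43.5 CPM in ModKD. *PDZ-GEF*, an exchange factor for Rap GTPases, measured 157 and 139 CPM in M1BPKD and 257 and 180.3 CPM in ModKD. The groups did not overlap for either gene, but neither difference was past the threshold given the spread between replicates.

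The share of higher genes was also taken by gene length and by chromosome, as a description without a test. Among the longest quartile of tested genes, with spans from 7560 bases upward, 192 of 2189 were higher, or 8.77%, against 3.84%, 3.06% and 3.70% in the shorter quartiles. The median log2 fold change of the longest quartile was 0.31. The lower genes made up 1.37% of the longest quartile and 1.46%, 2.06% and 1.83% of the others. Without M1BPKD replicate 3 the share of higher genes in the longest quartile was 4.78%, against 2.7% of all genes tested. By chromosome arm the share of higher genes was between 4.50% on 2L and 5.04% on 3R, with 4.81% on X, while on the fourth chromosome 1 of 73 tested genes was higher.

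**Figure D5:**
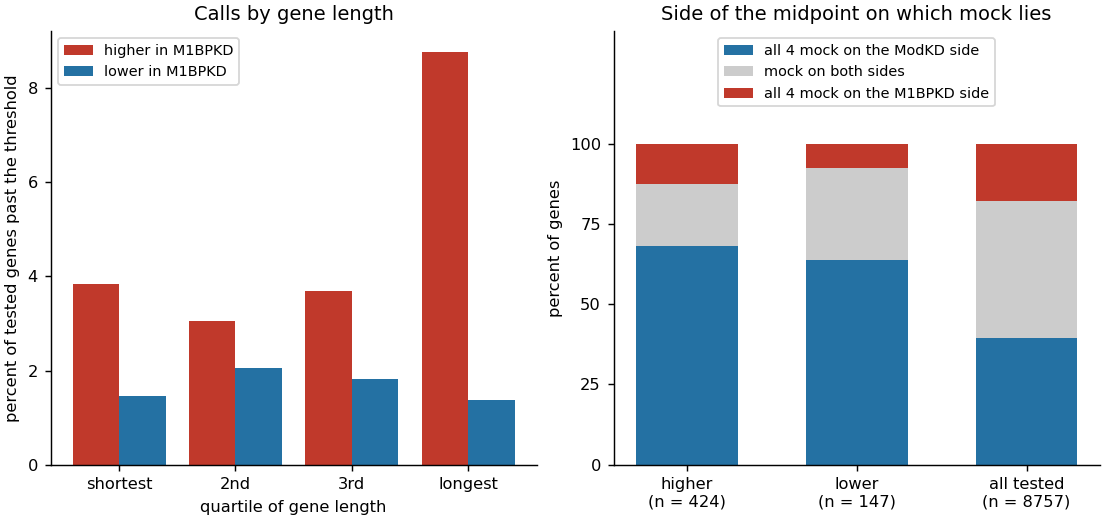
Left, percent of tested genes that were higher (red) or lower (blue) in M1BPKD, by quartile of gene length, from 3.84% higher in the shortest to 8.77% in the longest quartile. Right, percent of the higher, lower and all tested genes with all 4 mock libraries on the ModKD side of the midpoint (blue), on the M1BPKD side (red) or on both sides (grey); the ModKD side holds 68.2%, 63.9% and 39.5%.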

How the data were processed

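Nascent RNA was sequenced as 50 bp single-end reads. Per the labels and the study's methods, the authors used cutadapt 2.7 for trimming, HISAT2 2.1.0 for alignment to dm6 with FlyBase genes, SAMtools 1.9, and featureCounts 1.6.4 for stranded counting over whole gene spans. The authors deposited raw counts per gene, without normalization, for 17771 genes. A symbol was matched for 17651. Reads over 2 same-strand gene spans are not assigned under the default settings that were used. Of the library columns, 8 were used and 3 were not (2 under a repeated heading and 1 labelled Cp190KD).

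M1BPKD and ModKD libraries were compared with edgeR 4.0.16 in R 4.3.3 (TMM scaling and its default filter) by the quasi-likelihood test on the 4 libraries alone, with p adjusted after Benjamini and Hochberg and a threshold of 0.05. The common dispersion was 0.135. Levels are CPM scaled by TMM over all 8 libraries. A level of 3 counts, 0.246 to 0.349 CPM in these 4 libraries, was taken as the floor. This covers counting error only. Alternatives were other scalings, DESeq2 1.42.0 without the filter, other count filters, all 8 libraries in one model, stricter thresholds, and each library left out in turn.

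Named genes were the targeted genes, the genes the study follows, the 10 largest changes per direction (groups not overlapping, 100 or more normalized counts on average), the 5 smallest p-values per direction, up to 4 members per list with the smallest p past the threshold and its most abundant member, and markers past the threshold or at 0. Other genes were named after their values were seen. The members and lists were chosen with earlier results of these data known. Motif 1 shares among promoters and sequences by coordinates were not analysed here.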

Additional observations from a re-analysis of the deposited data

Results flagged for a closer look

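Among the 4 mock libraries, which are not part of the contrast, *cact*, the inhibitor of the Toll pathway, measured 473 CPM in mock replicate 2 and 434 to 438 CPM in the other 3. The gap between replicate 2 and its neighbour was 0.904 of the group's range, above Dixon's 95% critical value for 4 samples. Of 97 genes checked this was the only 1 beyond that value, and chance gives such a value in about 5% of groups. M1BPKD libraries measured 631 and 1011 CPM and ModKD libraries 416 and 303 CPM of *cact*, so the mock value lay between the knockdowns.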

How the results depend on the processing

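No paired analysis was possible because the groups share only replicate number 2, and a replicate block was not fitted. The promoter motif shares planned as a comparison, with their alternatives, were not run because no promoter sequences were used here.

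The counts of 424 higher and 147 lower genes moved by more than 1.5 times in several settings. Scaling by library size alone gave 253 higher and 261 lower, DESeq2 without the filter 654 higher, no filter on low counts 313 lower, at least 10 counts in every library 254 lower, all 8 libraries in one model 975 higher and 739 lower, and an adjusted p below 0.01 gave 218 higher and 30 lower. Leaving out 1 library at a time gave 251 to 521 higher and 82 to 193 lower genes. The fewest higher genes came without M1BPKD replicate 3, and 234 of those 251 were among the 424. Without M1BPKD replicate 2, 82 genes were lower, 64 of them among the 147, and without M1BPKD replicate 3, 95 were lower, 57 of them among the 147. With 1 library in an arm, that library is assumed to vary like the other group. The cause of these shifts was not tested.

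The log2 fold change of *M1BP* passed the test with all 8 libraries in one model (-0.97) and without ModKD replicate 2 (-1.24), and was between -1.27 and -0.54 with 1 library left out. Of 1250 values of 97 named genes under the alternatives, 1110 kept their direction and call, 103 kept the direction but lost the call, 21 gained one and 16 changed sign. Under library size alone the sign changed for *Cp190* (-0.19), *E2f1* (-0.15), *puc* (-0.14) and *RNaseMRP:RNA* (-0.06). Without M1BPKD replicate 2 it changed for *Cp190* (-0.08), *E2f1* (-0.09) and *RNaseMRP:RNA* (-0.05), and without M1BPKD replicate 3 for *puc* (-0.23). Without ModKD replicate 1 it changed for *Rpn2* (0.03), *InR* (0.18) and *RNaseMRP:RNA* (-0.40). Without ModKD replicate 2 it changed for *Cp190* (-0.16), *Trf2* (-0.02), *E2f1* (-0.12), *puc* (-0.10) and *snoRNA:Psi28S-2622* (2.24). With 1 library left out, the values ran from -0.16 to 0.32 for *Cp190*, -0.02 to 0.68 for *Trf2*, -0.59 to 0.03 for *Rpn2*, -0.12 to 0.36 for *E2f1*, -0.23 to 0.35 for *puc*, -0.29 to 0.18 for *InR* and -2.41 to 2.24 for *snoRNA:Psi28S-2622*. For *RNaseMRP:RNA* they ran from -0.40 to 1.5. Of these leave-one-out values, those past the threshold were the 1.5 (without ModKD replicate 2), the 2.24, and the -2.41 (without ModKD replicate 1).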

Other observations

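Some gene families not described above had at least 2 members past the threshold. They were picked after the values were seen, so their counts are a description only, beside 4.84% higher and 1.68% lower among all genes tested. Of 7 tested genes of the sidestep family, cell surface immunoglobulin proteins that guide axons, 4 were higher and 0 lower, with a median log2 fold change of 2.50. *side-IV* measured 16.2 and 15.5 CPM in M1BPKD and 2.21 and 1.16 CPM in ModKD. Of 12 tested genes of the beaten path family, which holds binding partners of sidestep proteins, 2 were higher and 0 lower, and *beat-IIIc* measured 687 and 1524 CPM in M1BPKD and 94.3 and 78.5 CPM in ModKD, a log2 fold change of 3.69. Of 4 genes of the Frizzled family of Wnt receptors 2 were higher, *fz* by 2.86 and *fz2* by 1.65. Of 15 tested genes of the vacuolar proton pump 3 were higher, among them *Vha16-1*, which was 1.34 higher on the log2 scale.

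Of 7 genes of RNA polymerase I subunits 2 were lower and 0 higher, with a median of -1.17, and *Polr1E* measured 12.8 and 18.1 CPM in M1BPKD and 43.8 and 55.8 CPM in ModKD (log2 fold change -1.68). Of 3 *Noc* genes, which act in the assembly of the large ribosomal subunit, 2 were lower, *Noc1* by -1.18 and *Noc2* by -1.35 on the log2 scale. Of 16 tested aminoacyl-tRNA synthetase genes 2 were lower, *ThrRS* by -0.99 and *ValRS* by -1.06. Further families had calls in both directions. Of 44 tested cytochrome P450 genes 3 were higher and 3 lower, and of 39 translation factor genes 3 were higher and 1 lower. Of 16 tested *Ugt* genes 1 was higher and 2 lower, and of 17 RhoGEF and RhoGAP genes 1 was higher and 1 lower.

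Of 8 tested genes annotated to the Y chromosome 3 were higher, in a line labelled female. *kl-5* measured 45.5 and 28.4 CPM in M1BPKD and 7.63 and 7.68 CPM in ModKD, and *CCY* 58.2 and 29.5 CPM against 7.22 and 7.21 CPM. Mock libraries held 4.88 to 9.85 CPM of *kl-5* and 5.80 to 12.6 CPM of *CCY*, close to ModKD.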
